A study of Homo sapiens with 7 samples.

Results

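The elements described here are the older members of MLT1, the repeats named MLT1E to MLT1N in RepeatMasker style, taken as every row of the deposited family and locus sheets whose repeat name starts with MLT1 followed by a letter from E to O. No name with the letter O was present. The rule found 44 of 500 repeat families, of which 22 are long terminal repeats (LTRs) and 22 are internal regions marked -int, and 137153 of 712115 annotated copies. Reads fell on 41 of the 44 families and on 6201 of the copies (4.52%), 14654 reads in all over 7 libraries. The names alone chose the members, and no measured value entered the rule.

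The J2 antibody, which binds double-stranded RNA, was used to isolate RNA for sequencing from HCT116, a human colon carcinoma cell line, and reads were counted over LTR elements. All groups share this line, the antibody, new medium after 24 h and culture to day 5. PBS is the vehicle control, and the 5-Aza-CdR group received 0.3 µM of 5-Aza-CdR (decitabine, which inhibits DNA methyltransferases). Vc stands for vitamin C in the published study, which serves the TET enzymes that oxidise methylated cytosine as a cofactor, and Combination cells received it together with 5-Aza-CdR. The labels give no dose for Vc or for the Combination. The libraries lie in 2 sets that were deposited and processed separately. PBS, 5-Aza-CdR and Combination cells gave 1 library in either set, and Vc cells gave 1 in set 2. Each treatment other than Vc therefore has 2 libraries, and nothing in the labels says that these came from separate cultures. The p-values below thus measure the spread between these libraries, which may be technical. For single copies that spread was pooled over all copies tested. Only repeats were counted, so the cell line label could not be checked against marker genes, and a gain in total double-stranded RNA cannot be seen in shares of reads.

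MLT1 elements are LTRs and internal remnants of the MaLR group of endogenous retroviruses, which carry no envelope gene and were copied with the enzymes of other retroviruses. They spread in early mammals, lost the ability to move long ago and differ from one another by many mutations. The letters follow subfamilies, and those from E onward are among the older and more diverged. Double-stranded RNA from such repeats forms where both strands of a copy are transcribed, or where 1 transcript holds copies in opposite orientation, and cytoplasmic sensors such as MDA5 recognise it. Most work on inhibitors of DNA methyltransferases concerns younger elements with active promoters, such as the LTR12 family of HERV9.

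Older MLT1 held a lower share of the counted reads in the treated libraries than in PBS of the same set, while LTR12 and HERV9 held a higher one. The size of the difference, and in set 1 its direction, depended on what the reads were divided by. The PBS library of set 1 held 3282 older MLT1 reads, its 5-Aza-CdR library 1391 and its Combination library 1571, which is 14.2%, 12.1% and 11.0% of the reads counted in families. The PBS library of set 2 held 2232, Vc 2149, the 5-Aza-CdR library 1802 and the Combination library 2227, which is 11.5%, 11.6%, 7.66% and 6.87%. Both treated libraries lay below the PBS library of their own set, Vc lay beside PBS, and the treated shares of set 1 overlapped the control shares of set 2.

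Per family read, the 5-Aza-CdR library stood at 0.850 of PBS in set 1 (95% interval 0.798 to 0.905) and at 0.667 in set 2 (0.627 to 0.710). The Combination stood at 0.773 of PBS in set 1 (0.728 to 0.821) and at 0.599 in set 2 (0.565 to 0.635). The Vc library stood at 1.01 of PBS (0.954 to 1.07), and the Combination stood at 0.910 of 5-Aza-CdR in set 1 (0.846 to 0.978) and at 0.897 in set 2 (0.843 to 0.955). A set holds 1 library of a treatment, so these ratios carry no test. Their intervals are exact conditional binomial ones and cover counting error only. Duplicates were marked in set 2, by the processing notes. How far PCR copies of 1 molecule still add to the counts of either set could not be seen.

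The share of LTR12 and HERV9 families in the PBS, 5-Aza-CdR and Combination libraries was 2.60%, 18.5% and 24.1% of family reads for set 1 and 5.69%, 25.2% and 31.2% for set 2. Outside those families, older MLT1 held 14.6%, 14.8% and 14.5% of the reads of PBS, 5-Aza-CdR and the Combination in set 1, with intervals that overlap. For set 2 the shares were 12.2% (PBS), 12.3% (Vc), 10.2% (5-Aza-CdR) and 9.99% (Combination). The ratios on this scale were 1.02 (0.954 to 1.08) and 0.992 (0.934 to 1.05) for 5-Aza-CdR and the Combination of set 1, and 0.842 (0.791 to 0.896) and 0.821 (0.774 to 0.871) for those of set 2. On this scale the intervals lie below 1 in set 2 and include it in set 1. Scaled by trimmed-mean (TMM) library sizes, taken from the fit described below, older MLT1 stood at 0.848 (0.796 to 0.903) and 0.807 (0.759 to 0.857) of PBS in set 1 and at 0.887 (0.833 to 0.944) and 0.854 (0.805 to 0.906) in set 2, with intervals below 1 in both sets. The normalisation factors behind those sizes were 0.821 and 0.762 in 5-Aza-CdR and the Combination of set 2 and 1.06 to 1.12 in the other 5 libraries.

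The direction in set 1 also rested on the scale and on 1 copy. The tRNA counts deposited with set 1 were 232558, 38200 and 15946 for PBS, 5-Aza-CdR and Combination. Divided by them, older MLT1 stood at 2.58 times PBS after 5-Aza-CdR (2.42 to 2.75) and at 6.98 times PBS after the Combination (6.57 to 7.42). On this scale all family reads (23131, 11531 and 14319) rose by more than older MLT1, whose share of them fell. Without the MLT1F1 copy on chromosome 5 described below, the ratios per family read were 1.05 (0.978 to 1.12) and 0.966 (0.906 to 1.03). In set 2 the same step left 0.668 and 0.599. No tRNA count was used for set 2.

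**Figure D1:**
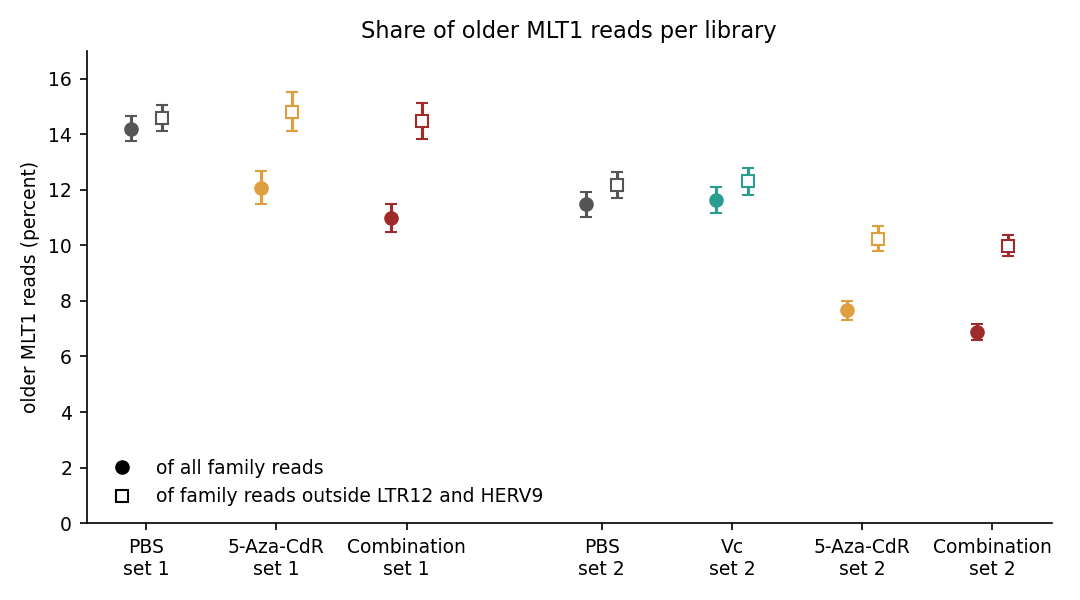
Share of older MLT1 reads in each of the 7 libraries, in percent, with Wilson 95% intervals for counting error; filled circles are shares of all family reads and open squares shares of family reads outside LTR12 and HERV9. The squares of set 1 lie together between 14.5% and 14.8%, while in set 2 the 5-Aza-CdR and Combination squares (10.2% and 9.99%) lie below PBS and Vc (12.2% and 12.3%).

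The related MaLR groups are given beside older MLT1 on the scale of all family reads. Younger MLT1 (MLT1A to MLT1D) stood at 0.766 of PBS after 5-Aza-CdR in set 1 (0.714 to 0.820) and at 0.663 in set 2, and MST, a still younger MaLR group, at 0.674 and 0.667. THE1, the youngest MaLR group, stood at 0.721 in set 1 and at 0.935 in set 2. Outside LTR12 and HERV9, THE1 held 9.41%, 11.1% and 12.04% of the reads of PBS, 5-Aza-CdR and the Combination in set 2, above PBS in both treated libraries, and 12.01%, 10.3% and 10.2% in set 1, below it. On that scale MST held 8.46%, 6.82% and 6.86% in set 1 and 7.81%, 6.57% and 6.52% in set 2, and younger MLT1 13.2%, 12.1% and 11.5% in set 1 and 12.2%, 10.2% and 11.3% in set 2, lower than PBS in all treated libraries. Per family read, the interval of older MLT1 in set 1 (0.798 to 0.905) overlapped that of younger MLT1, and no test of the difference was made with 1 library of each.

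Relative to the length annotated, older MLT1 LTRs gave a median of 32.7 reads per Mb and 10000 family reads over the 7 libraries (19.6 to 41.3), and internal regions 15.3 (11.3 to 29.1). Younger MLT1 LTRs gave 33.9 and their internal regions 19.6 on the same scale. Within older MLT1 the LTRs of MLT1E were lowest by the median of the 7 libraries, at 24.6, and those of MLT1M highest, at 43.7. The letters between spanned 25.7 (MLT1I) to 35.1 (MLT1F), and the ranges over libraries of all 10 letters overlap. MLT1F stood apart in 1 library, at 101 in PBS of set 1 against 18.5 to 52.0 in the other 6 libraries, and at 26.1 once its top copy was left out.

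**Figure D2:**
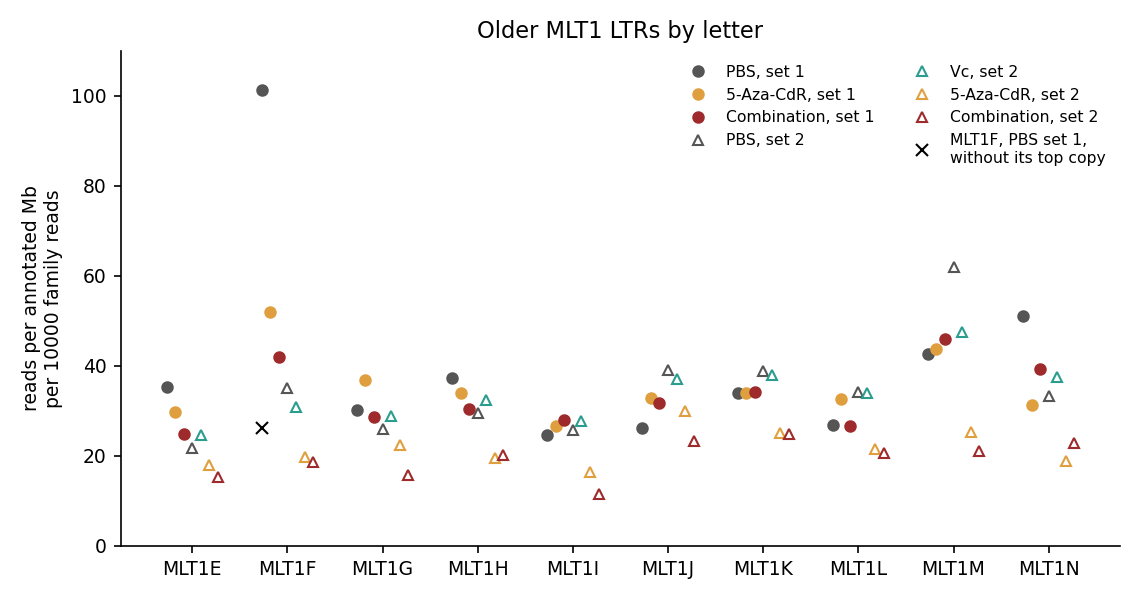
Reads per annotated Mb and 10000 family reads (vertical axis, from 0) for the LTRs of each older MLT1 letter; colours give the treatment, filled circles set 1 and open triangles set 2. In PBS of set 1, MLT1F stands at 101, and the cross marks its value of 26.1 without the copy with most reads.

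Of the 44 families, 31 passed the filter on low counts of the fit over all 352 families that could be tested, which used edgeR's quasi-likelihood test with treatment and set as terms. The other 13 had too few reads to test or, as MLT1M-int, no entry in set 2. Among those 31, 0 passed an adjusted p of 0.05 after 5-Aza-CdR, against 1.42% of all families tested, 0 after the Combination, against 2.56% (2.27% higher and 0.284% lower), and 0 for the Combination against 5-Aza-CdR, against 0%. At an unadjusted p under 0.05 the members numbered 3, 1 and 1 (44, 30 and 9 of all families), and DESeq2 called 0, 0 and 0. With DESeq2 5 members had no adjusted p in the Combination contrast. The precision is low with 2 libraries of a treatment: for MLT1H, with 1172 reads, the 95% interval after 5-Aza-CdR ran from -0.86 to 0.42 on the log2 scale, so changes of that size were not detectable.

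The median log2 change of the members tested was -0.12 after 5-Aza-CdR (12 of 31 above 0), beside -0.02 over all families (172 of 352 above 0). After the Combination it was -0.18 (9 of 31) beside -0.07 (160 of 352). For the Combination against 5-Aza-CdR it was -0.03 (14 of 31) beside -0.00 (175 of 352). These medians are close to those of all families and moved with single libraries and copies. Without the copy with most reads in each family they were -0.07 beside -0.07 after 5-Aza-CdR and -0.08 beside -0.11 after the Combination, and without PBS of set 2 the first pair was -0.02 beside -0.02.

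MLT1J1, an LTR, had the highest change after 5-Aza-CdR. It had 48 and 37 reads in the PBS libraries of sets 1 and 2, 50 and 79 after 5-Aza-CdR, 36 and 58 in the Combination and 54 in Vc. Its 5-Aza-CdR counts exceed PBS in both sets, by little in set 1 although that library held fewer reads, and Combination counts straddle PBS. The fitted log2 change was 1.14 (SE 0.33, interval 0.42 to 1.87, edgeR adjusted p = 0.158), and within sets it stood at 2.09 (1.38 to 3.17) and 1.77 (1.18 to 2.68) times PBS per family read. The Combination gave 0.38 (SE 0.33), and against 5-Aza-CdR the log2 change was -0.76 (unadjusted p = 0.0399, adjusted p = 0.999 by edgeR). Without its copy with most reads, which holds 71 of its 362 reads, the change after 5-Aza-CdR was 0.45. Leaving out either PBS library leaves a single PBS library assumed to vary like the other groups. The change was then 1.25 without PBS of set 1 and 1.08 without PBS of set 2.

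MLT1J2 and MLT1G1, also LTRs, followed, with log2 changes of 0.65 (SE 0.35) and 0.61 (SE 0.33) after 5-Aza-CdR. MLT1J2 had 63 and 101 reads in PBS, 72 and 105 after 5-Aza-CdR, 82 and 121 in the Combination and 56 in Vc. In set 1 the treated libraries lie above PBS, and in set 2 the 5-Aza-CdR and PBS libraries are nearly equal in reads although PBS was sequenced less deeply. After the Combination the highest changes were those of MLT1H-int (0.67, SE 0.69), MLT1J2 (0.55, SE 0.35) and MLT1F2-int (0.50, SE 0.95), all with intervals that include 0.

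MLT1F1 had the lowest change of the well-counted LTRs. It had 852 reads in PBS of set 1 against 84 in PBS of set 2, 104 and 63 after 5-Aza-CdR, 82 and 77 in the Combination and 70 in Vc. Only PBS of set 1 stands apart, and the other 6 libraries lie between 63 and 104. The fitted change was -1.32 after 5-Aza-CdR (SE 0.48, edgeR adjusted p = 0.242) and -1.60 after the Combination (SE 0.49, adjusted p = 0.185). A single copy held 777 of the 852 reads, and without it the changes were 0.12 (SE 0.31) and -0.04 (SE 0.31).

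Internal regions gave the other low values, at small counts. MLT1J-int had 17 and 39 reads in PBS, 3 and 13 after 5-Aza-CdR, 9 and 33 in the Combination and 49 in Vc. Its 5-Aza-CdR library is the lowest of each set, and its Combination counts lie between. The log2 change was -1.44 after 5-Aza-CdR (SE 0.51, edgeR adjusted p = 0.237), -0.34 after the Combination (SE 0.45) and 1.10 for the Combination against 5-Aza-CdR (SE 0.52, adjusted p = 0.999), the highest of that contrast before MLT1H-int (0.75) and MLT1E (0.64).

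MLT1F1-int had 20 and 4 reads in PBS and 1 to 3 in the treated libraries, with log2 changes of -2.09 (SE 0.97) and -1.65 (SE 0.89). MLT1H2-int had 14 and 4 in PBS and 1 or 2 in the treated libraries, with -1.79 (SE 1.07) and -2.08 (SE 1.06). Their intervals include 0. Lowest for the Combination against 5-Aza-CdR after MLT1J1 were MLT1J2-int (-0.54, SE 1.22) and MLT1G3 (-0.42, SE 0.34). Summed over all 22 internal families, reads stood at 0.738 of PBS after 5-Aza-CdR in set 1 (0.515 to 1.04) and at 0.460 in set 2 (0.341 to 0.616).

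**Figure D3:**
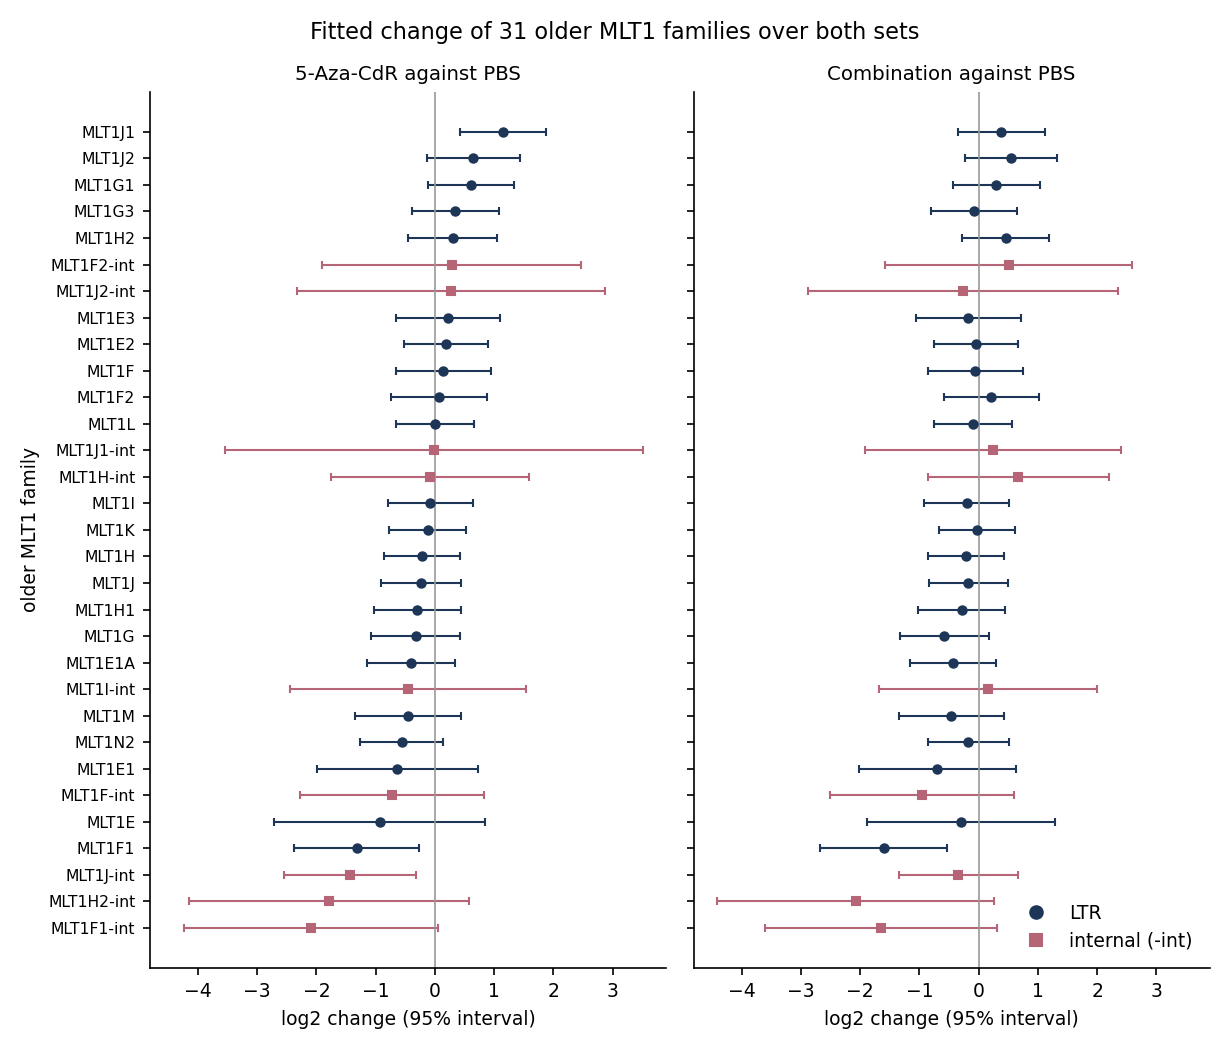
Fitted log2 change (horizontal axis) of the 31 older MLT1 families tested, after 5-Aza-CdR (left) and after the Combination (right) against PBS, with 95% intervals; circles are LTRs and squares internal regions. MLT1J1 has the highest value on the left (1.14) and MLT1F1 lies at -1.32 and -1.60; none passes the adjusted threshold.

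The 21 families with at least 100 reads were also compared with PBS within each set. After 5-Aza-CdR, 11 of them stood above PBS and 10 below per family read in set 1, with a median ratio of 1.0, whereas 4 stood above and 17 below in set 2, with a median of 0.632. After the Combination the numbers were 10 above and 11 below in set 1 (median 0.989) and 1 above and 20 below in set 2 (median 0.606). The count of intervals wholly below 1 was 2 and 13 after 5-Aza-CdR and 3 and 14 after the Combination, in set 1 and set 2. Scaled by those TMM sizes the sets lay closer: 11 stood above and 10 below in set 1 and 7 above and 14 below in set 2 after 5-Aza-CdR, with medians of 1.0 and 0.839. After the Combination these numbers were again 11 and 10, and 7 and 14, with medians of 1.03 and 0.865.

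MLT1F2 stood on opposite sides of PBS in the sets. It had 106, 89 and 110 reads in PBS, 5-Aza-CdR and the Combination of set 1, and 113, 70 and 107 in set 2, with 99 in Vc. Per family read the ratio to PBS after 5-Aza-CdR was 1.68 (1.26 to 2.25) in set 1 and 0.512 (0.375 to 0.696) in set 2. MLT1K and MLT1J, the largest families with 1863 and 1769 reads, stood at 1.0 (0.822 to 1.21) and 0.862 (0.687 to 1.08) of PBS in set 1 and at 0.641 and 0.632 in set 2. MLT1H, MLT1L and MLT1I stood at 0.906, 1.22 and 1.08 in set 1 and at 0.615, 0.625 and 0.632 in set 2.

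The remaining well-counted families are MLT1E1A, MLT1E2, MLT1E3, MLT1F, MLT1G, MLT1G3, MLT1H1, MLT1H2, MLT1M and MLT1N2. Their fitted log2 changes ran from -0.56 (MLT1N2) to 0.34 (MLT1G3) after 5-Aza-CdR and from -0.58 (MLT1G) to 0.45 (MLT1H2) after the Combination, none past the threshold. MLT1M, a short LTR with a mean copy length of 154 bp, had the lowest ratios of the LTRs in set 2, at 0.406 (0.246 to 0.654) after 5-Aza-CdR and 0.338 (0.211 to 0.535) after the Combination, from 55 reads in PBS to 27 and 31. In set 1 it stood at 1.03 and 1.08.

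In Vc, 11 of the 21 families stood above PBS of set 2 and 10 below, with a median ratio of 1.03. The interval excluded 1 only for MLT1J2, at 0.583 (0.413 to 0.816), from 101 reads in PBS to 56. Vc has 1 library, so this is a description of that library.

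Older MLT1 reads were spread thinly over the genome in 6 libraries and concentrated in PBS of set 1. There, 3282 reads lay on 746 copies, 4.40 reads per copy, and 42.7% of them at copies with 10 or more reads. The other 6 libraries had 1.31 to 1.63 reads per copy, with 2.10% to 16.7% of reads at such copies and 48.4% to 61.2% at copies with a single read, against 7.46% in PBS of set 1. At an equal depth of 1391 reads, PBS of set 1 would reach 516 copies, and the others 921 to 1090.

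The difference did not rest on the MLT1F1 copy: without it, at 1346 reads, the numbers were 580 copies in PBS of set 1 and 896 to 1073 in the others. Younger MLT1 stood likewise, with 3.69 reads per copy in PBS of set 1 and 1.28 to 1.85 elsewhere. PBS of set 1 thus stood apart from the other libraries in how its reads were spread. Fitted changes of families without it are in the closing section.

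**Figure D4:**
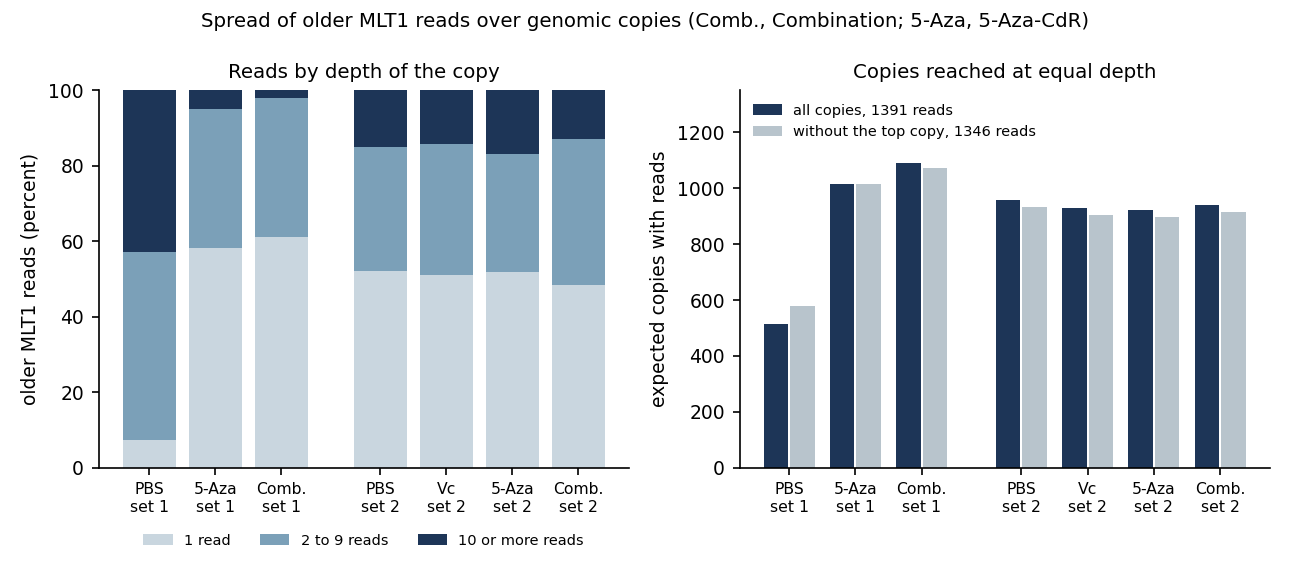
Left, percent of older MLT1 reads at copies with 1 read, with 2 to 9 and with 10 or more in each library; right, copies expected to have reads at 1391 reads (dark) and, without the copy with most reads, at 1346 (light). PBS of set 1 has 42.7% of its reads at copies with 10 or more and reaches 516 copies, against 921 to 1090 in the others.

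Most copies with reads were seen in 1 library. Of the 6188 copies with reads that both sets list, 4997 had reads in 1 library (43.7% of the reads), and 15 had reads in all 7. The PBS libraries of the sets shared 117 copies, 15.8% of those in set 1 and 8.25% of those in set 2. Within set 2, PBS and Vc shared 319 copies (22.5% and 23.9%), and 5-Aza-CdR and the Combination shared 322 (28.2% and 23.5%). Well-read copies recurred more: of the 59 copies with at least 5 reads in PBS of set 2, 54 had reads in Vc and 54 in 5-Aza-CdR, but 18 in PBS of set 1.

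Copies with reads were longer than those without, with a median of 341 bp against 210 bp. The share of copies with reads went from 1.77% up to 100 bp to 7.72% between 400 and 500 bp, while reads per Mb stayed between 333 and 597 in all length classes, and between 333 and 450 once the top copy was left out. By chromosome the share was highest on 19 (9.38%), 22 (8.32%) and 17 (8.08%) and lowest on Y (0.654%), 18 (2.73%) and X (2.75%). Over the copies of all repeats the same 6 chromosomes had shares of 10.6%, 10.8%, 10.2%, 3.02%, 5.05% and 5.07%.

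Single copies were tested where they had at least 30 reads over the 7 libraries, which left 29 older MLT1 copies among 409 copies of all repeats. edgeR called 6 of the 29 after 5-Aza-CdR, 4 higher and 2 lower, against 30.1% of all copies tested (23.5% higher, 6.60% lower). After the Combination it called 6, 2 higher and 4 lower, against 33.5% (26.4% higher, 7.09% lower). For the Combination against 5-Aza-CdR it called 0 of 29 against 0%, with 2 members and 7 of all copies at an unadjusted p under 0.05, and DESeq2 called 0. The median log2 change of the members was -0.68 after 5-Aza-CdR (10 of 29 above 0) beside 0.32 over all copies (229 of 409), and -0.42 after the Combination (10 of 29) beside 0.12 (213 of 409). The first median moved when a library was left out, which also changed the copies that reached the minimum. Without PBS of set 1 it was 0.14 (10 of 19 above 0) beside 0.44. It was -0.15 without Vc, which is not part of this contrast, and -0.35 without PBS of set 2, beside 0.45 and 1.09. In these 2 fits 21 members were tested. What the libraries and the copies tested each added to these shifts cannot be told apart. The median of the Combination stayed between -0.56 and -0.37 when 1 library was left out.

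These calls depended on the fit. The fit without the term for the set called 0 of the 29, and 0 of all 409, after 5-Aza-CdR and after the Combination. DESeq2 called 1 and 0, beside 14 and 18 of all 409, while giving no adjusted p for 18 and 17 of the 29. Leaving out any 1 of the 4 treated libraries leaves a single library of that treatment. Fewer copies were then called, among all repeats as among older MLT1. Beside each copy below stands the number of alternative settings that tested it and the number of these in which the call was kept. A DESeq2 fit that gave the copy no adjusted p counts as tested and not kept. Coordinates below are hg19 and 1-based, and genes at these positions were not looked up because the annotation used here is of another build.

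The copy with the smallest adjusted p after 5-Aza-CdR was an MLT1J1 LTR on the minus strand at chr12:112277524-112277914. It had 0 and 1 reads in the PBS libraries of sets 1 and 2, 9 and 40 after 5-Aza-CdR, 2 and 6 in the Combination and 13 in Vc. The 5-Aza-CdR library is the highest of each set, and PBS the lowest, while Vc stands above the Combination of its set. Without its 5-Aza-CdR reads the copy would not have reached the minimum. The log2 change after 5-Aza-CdR was 5.79 (SE 1.42, edgeR adjusted p = 0.00155), and it was the 1 member that DESeq2 also called (adjusted p = 0.0274). At the library sizes of the family fit, the 40 reads of set 2 were 43.9 times those of PBS (7.45 to 1779) and the 9 reads of set 1 exceeded a PBS floor of 3 counts at least 6.0-fold. After the Combination the change was 2.77 (SE 1.62, adjusted p = 0.197), and in set 2 the Combination stood at 0.117 of 5-Aza-CdR (0.0405 to 0.278). Vc stood at 13.4 times PBS of its set (2.01 to 568). The call after 5-Aza-CdR was kept in 8 of 12 settings.

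An MLT1J2 LTR at chr7:99964960-99965296 on the plus strand had 0 and 5 reads in PBS, 9 and 14 after 5-Aza-CdR, 6 and 9 in the Combination and 7 in Vc. Treated and control libraries do not overlap within set 1, and in set 2 they lie closer. This copy, too, would not have reached the minimum without its 5-Aza-CdR reads. The change after 5-Aza-CdR was 2.90 (SE 1.18, edgeR adjusted p = 0.0482), and the ratio in set 2 was 3.08 (1.05 to 10.9). Without PBS of set 1 the change was 1.49, and without PBS of set 2, which leaves PBS at 0, the fitted value is no bound. The call was kept in 1 of 11 settings.

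Another MLT1J2 LTR, a 55 bp fragment on the minus strand at chr13:111477218-111477272, had 0 reads in both PBS libraries, in Vc and in both treated libraries of set 1, and 23 and 13 reads in 5-Aza-CdR and the Combination of set 2. Its reads thus came from set 2 alone. They also came from treated libraries alone, so the copy passed the minimum only through the groups where it was high. It was called after 5-Aza-CdR (edgeR adjusted p = 0.00455) and after the Combination (adjusted p = 0.0234), and against a PBS floor of 3 counts the set 2 reads were higher by at least 8.42-fold (5-Aza-CdR) and 3.71-fold (Combination). The fragment lies 2349 bp from an LTR12C copy at chr13:111473323-111474869, which had 2, 28 and 46 reads in PBS, 5-Aza-CdR and the Combination of set 1 and 1, 50 and 77 in set 2, with 2 in Vc. The calls were kept in 4 of 9 and 3 of 9 settings. Whether both elements share a transcript was not tested.

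An MLT1E2 LTR on the minus strand at chrX:27844056-27844685 had 0 reads in both PBS libraries and in Vc, 0 and 11 after 5-Aza-CdR and 2 and 17 in the Combination. It too had nearly all of its reads in set 2. All of them came from treated libraries, so it too passed the minimum only through the groups where it was high. edgeR called it after both treatments (adjusted p = 0.00667 and 0.00141), and its set 2 reads exceeded the floor at least 4.03-fold (5-Aza-CdR) and 4.85-fold (Combination). The calls were kept in 3 of 8 and 4 of 8 settings. The nearest LTR12 copy, an LTR12C, lies 15507 bp away.

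The copy with the most reads was the MLT1F1 LTR at chr5:36221359-36221589 on the plus strand. It had 777 and 2 reads in PBS, 45 and 1 after 5-Aza-CdR, 23 and 0 in the Combination and 0 in Vc. PBS of set 1 exceeds all others, and in set 2 the copy is nearly without reads in every library. The log2 change was -2.18 after 5-Aza-CdR (SE 0.80, edgeR adjusted p = 0.0303) and -3.92 after the Combination (SE 0.84, adjusted p = 1.98e-04), and within set 1 the treated libraries stood at 0.116 (0.0838 to 0.157) and 0.0499 (0.0314 to 0.0754) of PBS. When 1 library was left out, the changes ranged from -2.61 to -0.79 (without 5-Aza-CdR of set 1) and from -4.32 to -2.79 (without PBS of set 1). The calls were kept in 4 of 12 and 7 of 12 settings. A copy of MLT1F in the opposite orientation lies 122 bp away, with 7 reads in PBS of set 1 and 0 in the other 6 libraries.

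An MLT1H and an MLT1G3 copy called lower passed the minimum of 30 reads only through PBS of set 1, so their calls set that 1 library against the others and support nothing about the treatments. An MLT1H LTR at chr12:93902222-93902352 had 27 and 2 reads in PBS, 1 in Vc and 0 in all 4 treated libraries, and was called after both treatments (edgeR adjusted p = 0.0189 and 0.00610). In set 1 it was at least 4.5-fold and at least 5.34-fold lower than PBS after 5-Aza-CdR and the Combination, and the calls were kept in 1 of 8 and 2 of 8 settings. An MLT1G3 LTR at chr2:98522846-98523382 had 31 reads in PBS of set 1, 1 in 5-Aza-CdR of set 1 and 0 elsewhere, set 2 included. It was called after the Combination (log2 change -5.77, edgeR adjusted p = 0.0214, kept in 3 of 10 settings). Without the Combination of set 1 the log2 change was -0.82.

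An MLT1E1 LTR at chr2:99814612-99814860 is the 1 called copy that was lower in both sets on comparable PBS reads. It had 8 and 10 reads in PBS, 9 in Vc, 0 and 3 after 5-Aza-CdR and 0 and 3 in the Combination. Without its PBS reads the copy would not have reached the minimum, so it was tested only through a group where it was high. All treated libraries lie below all control libraries, with a log2 change of -2.67 after the Combination (SE 1.11, edgeR adjusted p = 0.0481). In set 2 the Combination stood at 0.257 of PBS (0.0454 to 0.997). The call was kept in 0 of 8 settings.

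**Figure D5:**
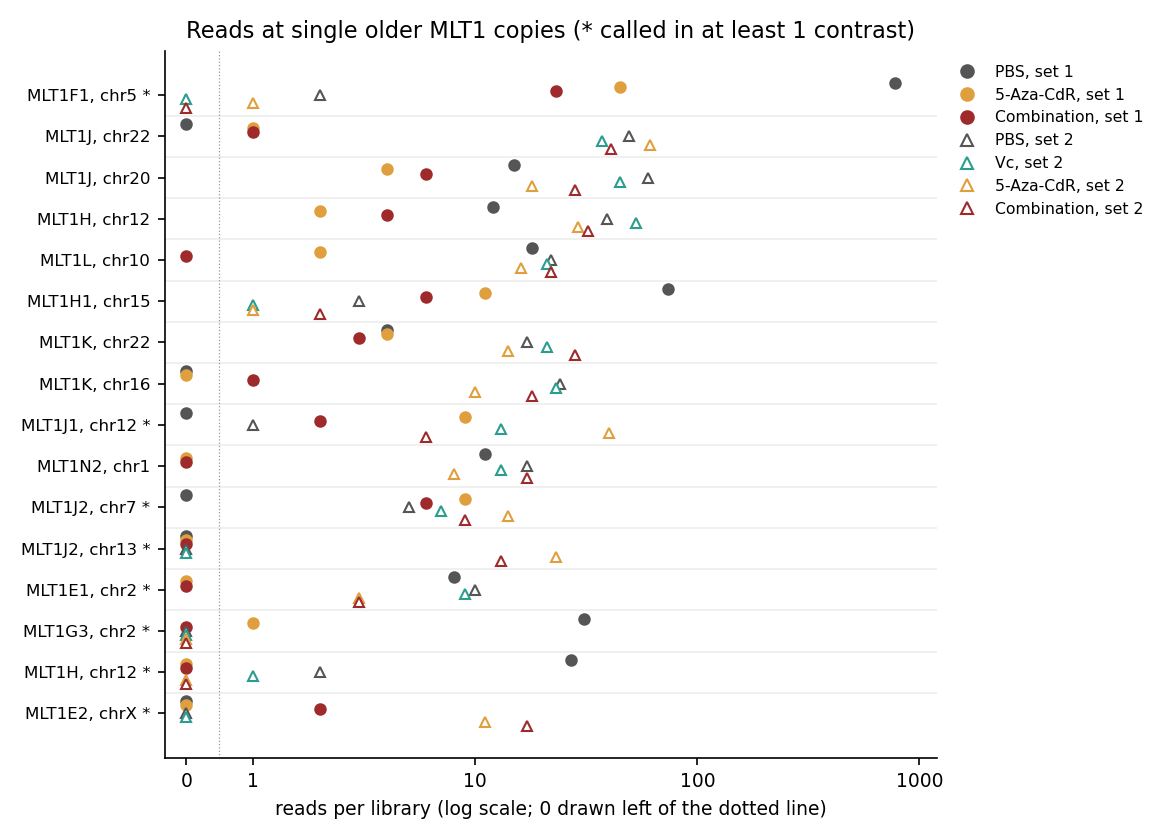
Reads per library (horizontal axis, log scale, with 0 drawn left of the dotted line) at the 10 older MLT1 copies with most reads and the called copies, named by family and chromosome; colours give the treatment, filled circles set 1 and open triangles set 2. The MLT1F1 copy stands at 777 reads in PBS of set 1 and at 0 to 45 in the other libraries, and most uncalled copies separate by set.

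The other copies among the 10 with most reads differed between the sets and not beyond the threshold between treatments. An MLT1J LTR at chr22:45530260-45530736 had 0, 1 and 1 reads in the 3 libraries of set 1 and 49, 37, 61 and 41 in PBS, Vc, 5-Aza-CdR and the Combination of set 2. An MLT1K LTR at chr16:23680739-23680973 had 0, 0 and 1 in set 1 and 24, 23, 10 and 18 in set 2. The reverse held for an MLT1H1 LTR at chr15:63816613-63817173, with 74, 11 and 6 reads in PBS, 5-Aza-CdR and the Combination of set 1 and 1 to 3 in set 2.

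An MLT1J LTR at chr20:390955-391309 had 15, 4 and 6 reads in PBS, 5-Aza-CdR and the Combination of set 1, and 60, 45, 18 and 28 in PBS, Vc, 5-Aza-CdR and the Combination of set 2. The treated libraries lie below PBS in both sets, at 0.330 (0.183 to 0.566) and 0.400 (0.246 to 0.636) of it in set 2. The joint log2 changes were -1.11 (SE 0.95) and -1.01 (SE 0.92), with edgeR adjusted p values of 0.446 and 0.468. Without PBS of set 1, which leaves a single PBS library, the changes were -1.69 and -1.61.

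An MLT1H LTR at chr12:112944404-112944750 had 39, 53, 29 and 32 reads for set 2 (in the order above) and 12, 2 and 4 for set 1, and an MLT1K LTR at chr22:31374418-31374882 had 17, 21, 14 and 28 in set 2 and 4, 4 and 3 in set 1. An MLT1L LTR at chr10:102121515-102121720 had 22, 21, 16 and 22 reads for set 2 and 18, 2 and 0 for set 1. An MLT1N2 LTR at chr1:115313188-115313340 had 17, 13, 8 and 17 in set 2 and 11, 0 and 0 in set 1. In raw reads, not scaled for depth, the control and treated libraries of set 2 overlap at the MLT1K, MLT1L and MLT1N2 copies. At the MLT1H copy both treated libraries of either set lie below its controls. The treated libraries of set 2 held more family reads (23528 and 32403) than its PBS and Vc libraries (19450 and 18495). The remaining 13 tested copies had 30 to 50 reads each, with log2 changes from -2.53 to 1.56 after 5-Aza-CdR and from -2.39 to 0.47 after the Combination, none past the threshold. Of all 29 tested, 17 had at least 80% of their reads in set 2 and 4 in set 1.

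The distance of older MLT1 copies to LTR12 and HERV9 elements was compared between copies with reads in treated libraries alone and in control libraries alone. Of the 135854 copies that both sets list, 3.66% lie within 10000 bp of such an element. Of 3173 copies with reads in 5-Aza-CdR or Combination libraries and none in PBS and Vc, 175 did (5.52%, Wilson 95% interval 4.77 to 6.36), and of 2265 copies with reads in PBS or Vc alone, 62 did (2.74%, 2.14 to 3.49). Within 5000 bp the shares were 1.95%, 3.47% and 1.59%, and within 1000 bp they were 0.501%, 1.58% and 0.397%. For comparison, over the copies of all repeats other than LTR12, HERV9 and older MLT1, 4.46% lie within 10000 bp, with 5.52% (5.21 to 5.85) of those with reads in treated libraries alone and 3.84% (3.52 to 4.18) of those with reads in control libraries alone. The last pair of shares was 3.54% and 2.84% in younger MLT1, 4.73% and 2.74% in MST and 4.02% and 2.79% in THE1. The share was higher for treated than for control libraries in each of these groups, but with overlapping intervals in the 3 MaLR groups just named. They were 2.93 to 4.27 and 2.19 to 3.67 in younger MLT1, and 3.83 to 5.82 and 1.95 to 3.84 in MST. In THE1 they were 3.39 to 4.76 and 2.13 to 3.66. The treated share of younger MLT1 lay below that of all its copies (3.67%). No test between the groups was made. Copies are not replicates and the read counts are low, so the intervals cover the number of copies only. Whether LTR12 transcripts run into these copies was not tested.

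An example is an internal MLT1H-int copy at chr1:95558598-95559169. The Combination library of set 2 gave 8 reads there, its 5-Aza-CdR library 1, and the other 5 libraries 0. It lies 242 bp from an LTR12C copy at chr1:95556764-95558356, with 0, 0 and 5 reads for PBS, 5-Aza-CdR and the Combination of set 1 and 0, 0, 3 and 5 for PBS, Vc, 5-Aza-CdR and the Combination of set 2. It was chosen for its place near LTR12C after its values were seen.

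Copies with at least 5 reads over the treated libraries and 0 in PBS and Vc numbered 44 (0.711% of the copies with reads), with 389 reads, and 2 of them had reads in all 4 treated libraries. The reverse group, at least 5 reads in PBS or Vc and 0 in the 4 treated libraries, numbered 116 (1.87%) with 840 reads, and 91 of these had at least 5 reads in PBS of set 1. Over all repeats other than LTR12, HERV9 and older MLT1 the same groups held 0.892% and 1.59% of the copies with reads, and in younger MLT1 they held 0.633% and 2.23%.

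An older MLT1 copy in the opposite orientation, with which a transcript could fold back, was less common within 10000 bp of copies with reads than of those without. The shares were 34.9% (33.7 to 36.1) and 38.7%. Within 1000 bp the shares were 7.39% and 7.85%, with intervals that overlap. Among the 184 copies with at least 10 reads, 70 (95% interval 31.3% to 45.2%) had one within 10000 bp.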

How the data were processed

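Reads of J2-bound RNA from 7 HCT116 libraries were counted by the authors over RepeatMasker LTR elements on hg19. The deposited values are raw read counts per family and per copy, per the file headers, and in set 1 also the authors' ratio of family counts to tRNA counts, which gave the tRNA count of each library. Bowtie2 and Picard are named in the submitters' processing notes for set 2, whose duplicates were marked. For set 1 no aligner, and for neither set a counting tool or a treatment of reads with several matches, is named, which leaves counts of near-identical copies uncertain. The members and lists were chosen with earlier results of these data known.

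Libraries held 11531 to 32403 family reads and 18495 to 133279 copy reads. The excess of copy reads in set 1 came mostly from HERVE_a-int, with 22769 to 106894 copy reads there, listed at 0 in its family table. Families in both tables (498) and copies with at least 30 reads were fitted over all 7 libraries with edgeR 4.0.16 (R 4.3.3; TMM, quasi-likelihood, treatment and set as terms, Benjamini-Hochberg threshold 0.05). The set pairs the libraries, since the labels place them in 2 workbooks and same-set libraries deviated together (correlations 0.367, 0.419 and 0.622 over 352 families). DESeq2 1.42.0 and the settings in the closing section were alternatives. The edgeR script was tested on simulated data. Ratios, Wilson intervals and figures used Python 3.11.15, pandas 2.3.3, scipy 1.17.1 and matplotlib 3.10.9. Named families had at least 100 reads or were among the 3 highest and 3 lowest of a contrast, and named copies were the 10 with most reads and up to 5 called in each direction. In lower bounds, 0 reads were taken as a floor of 3 counts per library. Vc, with 1 library, was not tested.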

Additional observations from a re-analysis of the deposited data

How the results depend on the processing

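The alternatives without the copy with most reads in each family, outside LTR12 and HERV9, without HERVE_a-int and with joint library sizes for single families were chosen after seeing the data. Of the 31 older MLT1 families, 0 were called in every contrast, also with DESeq2, with no replicate block (0), without the copy with most reads in each and from sums over copies. Scaling by total reads called 1 (MLT1F1, lower) after 5-Aza-CdR and 1 after the Combination, beside 11 and 17 of all 352 families. It moved the median of all families to -0.24 and -0.36. Without a filter on low counts 1 was called after the Combination, beside 15 of all 494. When 1 PBS library was left out, a single one remained, and more of all families were called as well than with both. Such calls do not set older MLT1 apart from the other families. Leaving out 1 library gave 0 to 7 calls after 5-Aza-CdR, 0 to 3 after the Combination and 0 to 1 between them. The 7 came without PBS of set 2 (MLT1J1, MLT1J2, MLT1G1, MLT1F and MLT1F2 higher, MLT1F1 and MLT1N2 lower). Without PBS of set 1, MLT1J1 was called higher and MLT1J-int and MLT1M lower.

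The 6 and 6 copies called went to 2 and 3 of 97 with a minimum of 15 reads, beside 90 and 165 of all 1297. With a minimum of 60 they went to 2 and 1 of 10, beside 31 and 32 of 144. DESeq2 called 1 and 0, beside 14 and 18 of 409. With no replicate block the calls were 0 and 0, also over all 409. Without Vc there were 4 and 4 of 21, beside 119 and 139 of 333. Fits without another library leave 1 library of that treatment, and their calls are not counted here. The MLT1J2 copy on chromosome 13 ranged from -0.71 (without PBS of set 2) to 5.93 after the Combination when 1 library was left out. The other calls of families and copies changed no direction. The cause of these changes was not tested, except that fewer libraries or copies entered some fits.

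The log2 ratio of older MLT1 to PBS was -0.23 after 5-Aza-CdR and -0.37 after the Combination in set 1, and -0.58 and -0.74 in set 2. Per copy read it was 0.53 and 0.33 in set 1, and without HERVE_a-int -0.55 and -0.63. Without the copy with most reads it was 0.065 and -0.049, outside LTR12 and HERV9 0.023 and -0.011 (set 2, -0.25 and -0.29, and -0.036 for the Combination against 5-Aza-CdR, from -0.16), and per tRNA count 1.37 and 2.80, with 1.44 for the Combination against 5-Aza-CdR. With joint library sizes set 1 gave -0.24 and -0.31, and set 2 -0.17, -0.23 and, for the Combination against 5-Aza-CdR, -0.054. Low counts limit single copies most, and 4997 copies were seen in 1 library.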
